A study of Mus musculus with 6 samples.

Results

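The genes examined here encode nucleases that digest DNA, enzymes that modify nucleic acids or their building blocks, and sensors that detect nucleic acids in the cytosol. The 10 genes are Dnase1, Dnase1l3, Dnase2a and Trex1 as nucleases, Samhd1 and Adar as modifying enzymes, and Ifih1, Ddx58, Dhx58 and Zbp1 as sensors. Every array probe that carries the name of 1 of these genes was kept. This gave 24 probes of 56605, with 7 for nucleases, 7 for modifying enzymes and 10 for sensors, and 10 gene names of 36870. TA of whole kidney compared 3 female MRL/MpJ mice (MRL) with 3 female MRL/MpJ-Fas lpr/lpr mice (LPR), all 6 months of age and with no treatment named. Both groups share the MRL/MpJ background. LPR mice are homozygous for the lpr mutation of Fas, a death receptor that limits the survival of lymphocytes, and they develop lupus nephritis. The mutation is carried by every cell of the mouse, so a comparison of whole kidneys does not show in which cells a transcript differed.

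DNA and RNA of dying cells are normally cleared by secreted, lysosomal and cytosolic nucleases before they meet receptors of the immune system. Double-stranded RNA in the cytosol is recognised by the RIG-I-like receptors, which signal through the adaptor MAVS to induce interferon, and nucleic acids in the Z form are bound by ZBP1. Inherited loss or altered function of several of these genes is known to cause interferon-driven disease or lupus.

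Signals are given as log2 intensity relative to the 75th percentile of each array, so that a difference of 1 is a doubling. Of all probes, 39924 cleared the background on 3 or more arrays and were compared by limma with Benjamini-Hochberg adjustment over all of them. The threshold was an adjusted p under 0.05. At this threshold 6.53% of the tested probes were higher and 6.17% were lower in LPR mice. The share of higher probes among those that passed was 51.4%, and 36.3% after normexp, another background correction. In normexp an offset of 50 was added to every intensity, which shrinks the changes of dim probes more than those of bright ones. The median change was -0.14 over all tested probes, and single changes are to be read against it. Fas itself was measured by 2 probes. The brighter one, A_55_P2091676, gave -0.37, -0.28 and -0.06 in MRL mice and -0.49, -1.25 and -0.37 in LPR mice, a log2 change of -0.47 that did not pass in limma (adjusted p = 0.234). The other one, A_52_P73385, was well above background on no MRL array and on 3 LPR arrays, and LPR mice exceeded MRL mice at least 1.47-fold (limma adjusted p = 0.0338). The place of the lpr mutation relative to these probes was not given in the sources used here, so they do not check the strain labels.

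Of the 24 probes, 22 passed the filter on dim signals and were tested, the probe of Dnase1l3 through its LPR arrays alone. In limma, 10 of the 22 were higher in LPR mice, against 6.53% of all tested probes, and 2 were lower, against 6.17%. Together, 12 of 22 passed, against 12.7%, and the remaining 10 did not. The 2 lower probes were both of Dnase1. The groups did not overlap, with LPR above MRL, in 15 of the 22 probes, against 11.0% of all tested probes, and with LPR below MRL in 2, against 26.9%. The median log2 change of the 22 probes was 0.73. By the brightest tested probe of each gene, 7 of the 10 genes passed, 6 as higher and 1 as lower, against 7.12% and 5.47% of all genes. Every tested probe passed in 6 genes, and no probe passed in 3 genes, namely Dnase2a, Adar and Ddx58. The plot of the signals shows these values for each mouse.

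**Figure D1:**
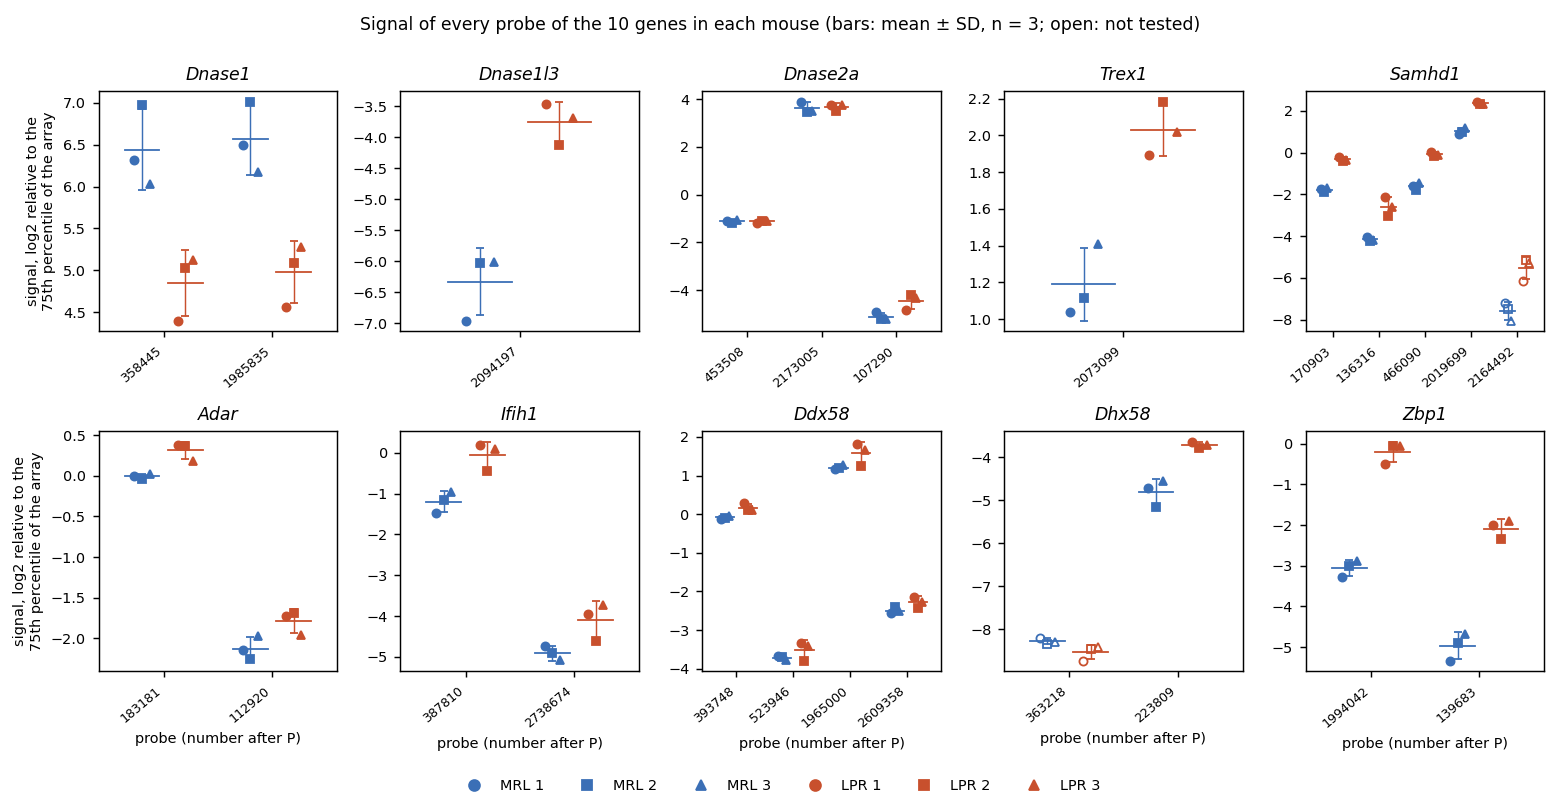
Signal of every probe of the 10 genes in each mouse, in log2 units relative to the 75th percentile of the array, with 1 panel per gene and its own vertical scale. Blue symbols are MRL mice and red symbols LPR mice, horizontal lines are means with the SD of 3 mice, and open symbols are the 2 probes that were not tested. Both Dnase1 probes lay lower in all LPR mice, whereas the probes of Dnase1l3, Trex1, Zbp1 and the tested probes of Samhd1 lay higher in all LPR mice.

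Dnase1 transcripts fell in LPR kidneys, with signals 3.00-fold higher in MRL mice than in LPR mice. Dnase1 encodes the main secreted endonuclease of urine, and it is made by epithelial cells of the kidney. Its 2 probes lie 87 bases apart on the plus strand of chromosome 16 in build mm9, at chr16:4039878-4039937 and chr16:4039965-4040024. They are shown because they are separate stretches of the transcript with the same result, and the first 30 bases of each were, with no base marked:
A_51_P358445: gttcagccatactgcttctggtgaggaaga
A_55_P1985835: gtctgccacggggactaagaaatactgttt

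The brighter probe, A_55_P1985835, gave 6.50, 7.02 and 6.17 in MRL mice and 4.56, 5.09 and 5.28 in LPR mice. Every LPR mouse lay below every MRL mouse, with a gap of 0.89 between the groups, and LPR 1 was the lowest. The mean signal was 6.56 ± 0.42 for MRL mice and 4.98 ± 0.37 for LPR mice (both SD, n = 3), and the log2 change was -1.59 (standard error 0.26, limma adjusted p = 0.0109). The other probe, A_51_P358445, gave the same change to 2 decimals (standard error 0.29, limma adjusted p = 0.0150). For the brighter probe, 0.203% of all tested probes had a smaller change, that is a larger fall. The difference between the changes of both probes was -0.01 with a 95% interval of -0.21 to 0.20. In the RefSeq list Dnase1 overlaps Trap1, a mitochondrial chaperone gene, whose probe had a log2 change of -0.31 that did not pass (limma adjusted p = 0.0905).

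Several kidney cell markers were also lower in LPR mice. Of 22 marker genes of proximal tubule, distal nephron, podocytes and endothelium, 0 rose and 4 fell in limma (1 and 10 at an unadjusted p under 0.05), namely Lrp2, Slc5a2, Calb1 and Kdr, with a median log2 change of -0.26 over the 22. The summed linear signal of the 6 proximal tubule markers was 564 to 611 times the 75th percentile in MRL mice and 435 to 486 times in LPR mice. Their median log2 change was -0.33. For the 6 distal nephron markers the sum was 346 to 377 times in MRL mice and 274 to 299 times in LPR mice. Umod, the brightest of the 6, weighs most in this sum and had a log2 change of -0.21 that did not pass. The podocyte sums overlapped between the groups, and the sum of 5 endothelial markers was 16.2 to 17.4 times in MRL mice and 11.9 to 13.9 times in LPR mice. Calb1, a calcium-binding protein of the distal nephron, had a log2 change of -1.20 and, like Dnase1, its lowest value in LPR 1. None of the proximal tubule and distal nephron markers fell by as much as Dnase1. The part of these shifts in the Dnase1 result was not tested. In whole kidney, fewer cells of a type and less RNA per cell cannot be told apart.

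Dnase1l3 transcripts were higher in LPR mice. DNASE1L3 is secreted by macrophages and dendritic cells and digests chromatin. Its single probe, A_55_P2094197, lies on the minus strand at chr14:8797719-8797778 in mm9. It gave -6.96, -6.03 and -6.01 in MRL mice, none of them well above background, and -3.47, -4.13 and -3.69 in LPR mice, all 3 well above background. The groups were apart by 1.88, and LPR mice exceeded MRL mice at least 4.56-fold (limma adjusted p = 0.00203). The bound sets the mean of the LPR arrays against MRL signals raised to the lowest signal well above background on the array. The size of this rise depended on the background correction, as normexp gave a log2 change of 0.53 (limma adjusted p = 0.00310). Stretches of 16 bases of this probe also occur in probes of 3 other genes.

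Trex1, the main exonuclease for DNA in the cytosol, rose by a smaller amount. Its probe A_55_P2073099 at chr9:108960454-108960513 in mm9, on the minus strand, gave 1.04, 1.11 and 1.41 in MRL mice and 1.89, 2.18 and 2.02 in LPR mice. Every LPR mouse exceeded every MRL mouse. The log2 change was 0.84 (standard error 0.14, limma adjusted p = 0.0109), which is 1.79-fold. With the column of the slide as a block, which leaves LPR 1 against the MRL mice, the change was 0.70 and did not pass (limma adjusted p = 0.120). The RefSeq list holds a read-through transcript of Trex1 with the neighbouring gene Atrip, and the probe of Atrip had a log2 change of -0.17 that did not pass (limma adjusted p = 0.377).

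Dnase2a, the DNase of lysosomes, was not called by any of its 3 probes. The brightest, A_55_P2173005, gave 3.90, 3.44 and 3.50 in MRL mice and 3.77, 3.49 and 3.76 in LPR mice. The groups overlapped, and the log2 change was 0.06 with a 95% interval of -0.31 to 0.44 (limma adjusted p = 0.821). The probe A_52_P453508 had a log2 change of -0.01 with a 95% interval of -0.24 to 0.22, and its sign turned in 4 of 20 alternative settings. The probe A_66_P107290 gave -4.93, -5.21 and -5.21 in MRL mice and -4.85, -4.21 and -4.33 in LPR mice. These groups did not overlap, and the log2 change of 0.65 missed the threshold (limma adjusted p = 0.0682). It passed in 2 of 20 alternative settings. Without LPR 1 the log2 change was 0.85 (limma adjusted p = 0.0208). With only probes above background on all 6 arrays it was 0.65 (limma adjusted p = 0.0495). Normexp gave 0.06 (limma adjusted p = 0.708). The brightest probe and this one are shown whole because they differed by 0.59 in their change, the largest difference among the probes of these genes, with a 95% interval of 0.03 to 1.16 (limma adjusted p = 0.277 over all probe pairs of the array). They lie on the plus strand at chr8:87435251-87435310 and chr8:87433830-87434605 in mm9, the latter across a splice junction, and read, with no base marked:
A_55_P2173005: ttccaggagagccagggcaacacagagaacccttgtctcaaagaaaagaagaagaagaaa
A_66_P107290: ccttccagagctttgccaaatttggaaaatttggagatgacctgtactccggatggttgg

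Stretches of 16 bases of the brightest probe were found in probes of 5 other genes, and of the probe across the junction in none. The signal of A_55_P2173005 may therefore include other transcripts, and it is uncertain as a measure of Dnase2a.

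Samhd1 transcripts rose in LPR mice on every tested probe. SAMHD1 is a triphosphohydrolase that lowers the pool of deoxynucleotides, is abundant in myeloid cells, and restricts reverse transcription. The 4 tested probes gave log2 changes of 1.34 to 1.55, and 4 of 4 passed, with limma adjusted p between 0.000255 and 0.00582. The brightest, A_55_P2019699, gave 0.91, 0.99 and 1.18 in MRL mice and 2.44, 2.30 and 2.35 in LPR mice. Every LPR mouse exceeded every MRL mouse, by a gap of 1.13. The change of this probe was 1.34 (standard error 0.11, limma adjusted p = 0.000468), which is 2.53-fold. The probe A_51_P170903 gave -1.75, -1.91 and -1.72 in MRL mice and -0.22, -0.40 and -0.34 in LPR mice, a log2 change of 1.47 (standard error 0.11, limma adjusted p = 0.000255). The probe A_52_P466090 gave -1.60, -1.77 and -1.46 in MRL mice and 0.03, -0.17 and -0.10 in LPR mice, a log2 change of 1.53. These last 2 probes cross splice junctions on the minus strand of chromosome 2 in mm9, at chr2:156935267-156936341 and chr2:156930644-156931997. They are shown because such probes read spliced RNA rather than genomic DNA, and with no base marked they read:
A_51_P170903: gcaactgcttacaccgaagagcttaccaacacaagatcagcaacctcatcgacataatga
A_52_P466090: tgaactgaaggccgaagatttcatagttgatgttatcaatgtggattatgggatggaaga

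The fourth tested probe of Samhd1, A_52_P136316, gave -4.06, -4.22 and -4.17 in MRL mice and -2.13, -3.05 and -2.61 in LPR mice. It was the least even of the 4 among LPR mice, which spanned 0.92, and its log2 change was 1.55 (standard error 0.22, limma adjusted p = 0.00582). A probe of 1 other gene shares a stretch of 16 bases with it. The remaining probe, A_55_P2164492, was well above background on no MRL array and on 2 of the 3 LPR arrays and was not tested. Its mean was -7.58 in MRL mice and -5.53 in LPR mice, and the rise was at least 1.34-fold.

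Adar, whose product converts adenosine to inosine in double-stranded RNA, did not pass by either of its 2 probes. A_52_P183181 at chr3:89557158-89557217 in mm9, on the plus strand, gave 0.0029, -0.04 and 0.02 in MRL mice and 0.38, 0.38 and 0.19 in LPR mice. The groups did not overlap, yet the log2 change was only 0.32 (standard error 0.10, limma adjusted p = 0.0917). It passed in 1 of 20 alternative settings, the normexp correction, with a change of 0.30 (limma adjusted p = 0.0429). A_66_P112920 had a log2 change of 0.34 with a 95% interval of 0.03 to 0.65 (limma adjusted p = 0.137). Adar overlaps Chrnb2, a subunit of acetylcholine receptors, whose probe had a log2 change of -0.33 that did not pass (limma adjusted p = 0.379).

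Among the RIG-I-like receptors, Ifih1 and Dhx58 were higher in LPR mice and Ddx58 was not called. Ifih1 encodes MDA5, the sensor of long double-stranded RNA. Its brighter probe, A_51_P387810 at chr2:62435621-62435680 in mm9 on the minus strand, gave -1.48, -1.15 and -0.96 in MRL mice and 0.18, -0.44 and 0.08 in LPR mice. Every LPR mouse exceeded every MRL mouse, with LPR 2 the lowest of them. The log2 change was 1.14 (standard error 0.21, limma adjusted p = 0.0156), which is 2.20-fold. The call was lost without MRL 1 (1.00, limma adjusted p = 0.0509) and without LPR 3 (1.07, limma adjusted p = 0.0570), and with the slide column as a block (1.38, limma adjusted p = 0.0602). The second probe, A_55_P2738674, lies 10692 bases upstream of the first in the genome and gave -4.72, -4.92 and -5.09 in MRL mice and -3.95, -4.60 and -3.73 in LPR mice. Its log2 change of 0.82 missed the threshold (limma adjusted p = 0.0661). It passed in 4 of 20 alternative settings, 1 of them without LPR 2, where it was 1.07 (limma adjusted p = 0.0127).

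Dhx58 encodes LGP2, which lacks the signalling domain of RIG-I and MDA5. Its probe A_52_P223809 at chr11:100556271-100556330 in mm9, on the minus strand, gave -4.71, -5.16 and -4.55 in MRL mice and -3.63, -3.78 and -3.71 in LPR mice. The groups did not overlap, and the LPR mice spanned only 0.15. The log2 change was 1.10 (standard error 0.17, limma adjusted p = 0.00738), which is 2.15-fold. With normexp it was 0.35 (limma adjusted p = 0.0220), and with the slide column as a block 1.18 and not past the threshold (limma adjusted p = 0.0648). A probe of 1 other gene shares a stretch of 16 bases with A_52_P223809. The other probe of Dhx58, A_51_P363218, did not clear the background on any of the 6 arrays and gives no value here.

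Ddx58, which encodes RIG-I, was measured by 4 probes spread over 24635 bases of the minus strand of chromosome 4, and 0 of 4 passed in limma, nor in the methods' t-test after adjustment. At an unadjusted p under 0.05 limma counted A_51_P393748 alone, with a log2 change of 0.25. The 4 log2 changes were 0.21 to 0.37. The brightest probe, A_55_P1965000, gave 1.16, 1.18 and 1.28 in MRL mice and 1.83, 1.24 and 1.66 in LPR mice. LPR 1 and LPR 3 lay above all MRL mice, whereas LPR 2 lay among them. The log2 change was 0.37 with a 95% interval of -0.01 to 0.76 (limma adjusted p = 0.178). Without LPR 2 it was 0.54 and passed (limma adjusted p = 0.0347), which held for none of the other 3 probes. At the other end of the gene, A_52_P523946 gave -3.67, -3.71 and -3.78 in MRL mice and -3.34, -3.79 and -3.41 in LPR mice, with LPR 2 just below all MRL mice. The upper ends of the 95% intervals of the 4 probes, 0.49 to 0.76, lay below the estimated changes of the called probes of Ifih1 and Dhx58. The intervals of those called probes also reached below 0.76, so they overlapped that of the brightest Ddx58 probe. With normexp the brightest Ddx58 probe had a change of 0.37, against 0.35 for the Dhx58 probe and 1.00 for the brighter Ifih1 probe. The Dhx58 probe is the dimmest of these and the most affected by the offset, so these values do not rank the genes. The difference between genes was not tested.

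Zbp1 showed the largest rise among the tested probes of these genes that were well above background in both groups, a comparison that leaves out Dnase1l3, whose rise has only a lower bound. ZBP1 binds Z-form DNA and RNA through its Z-alpha domains, as the long form of ADAR does, and it recruits RIPK3 to start necroptosis. The brighter probe, A_55_P1994042, gave -3.28, -3.01 and -2.89 in MRL mice and -0.50, -0.06 and -0.05 in LPR mice. Every LPR mouse exceeded every MRL mouse, by a gap of 2.39, and LPR 1 was the lowest of them. The log2 change was 2.86 (standard error 0.17, limma adjusted p = 9.73e-05), which is 7.25-fold, and 98.4% of all tested probes had a smaller change. The second probe, A_66_P139683, gave -5.33, -4.89 and -4.68 in MRL mice and -2.00, -2.35 and -1.91 in LPR mice, a log2 change of 2.88 (standard error 0.20, limma adjusted p = 0.000196). With normexp the changes were 2.19 and 1.37. A probe of 1 other gene shares a stretch of 16 bases with the brighter probe, whereas the second probe shares none. The probes lie 7049 bases apart on the minus strand, at chr2:173039307-173039366 and chr2:173032258-173032317 in mm9. The first 30 bases of each are shown because 2 distant stretches gave nearly the same change, with no base marked:
A_55_P1994042: caagctggtcttgaacccacagagatcttc
A_66_P139683: acagatgtgacatgaaagtacatgtaacac

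**Figure D2:**
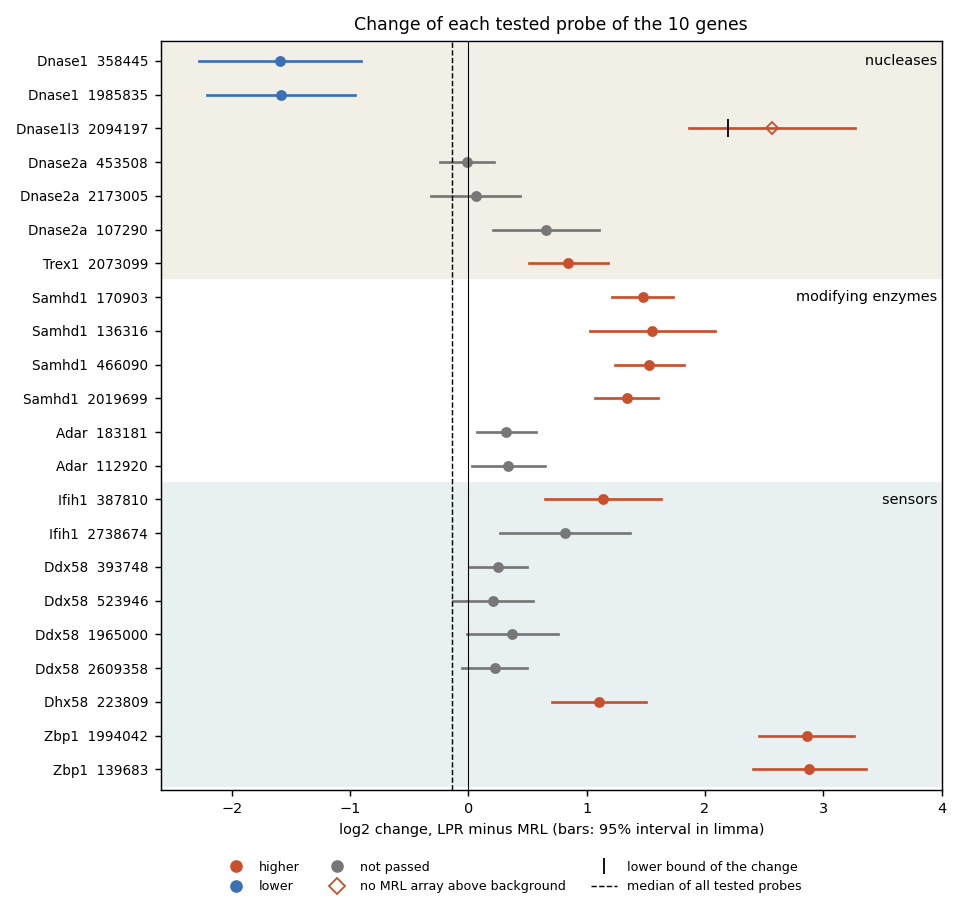
Log2 change, LPR minus MRL, of the 22 tested probes with its 95% interval in limma, grouped into nucleases, modifying enzymes and sensors. Red points passed as higher, blue points as lower and grey points did not pass, the open diamond is the fitted change of Dnase1l3, which was well above background on no MRL array, with its lower bound as a tick, and the dashed line is the median of all tested probes at -0.14. Nucleases lie on both sides of 0, from -1.59 for Dnase1 to at least 2.19 for Dnase1l3, whereas no tested probe of a modifying enzyme or sensor has a change below 0.

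Set side by side, nucleases went in both directions and the other classes in 1. Of 7 nuclease probes, 2 were higher, 2 were lower and 3 did not pass, with a median log2 change of 0.06, also with Dnase1l3 at its lower bound. Of 6 tested probes of modifying enzymes, 4 were higher and 2 did not pass, with a median of 1.41. Of 9 tested sensor probes, 4 were higher and 5 did not pass, with a median of 0.82. Over all tested probes the median was -0.14, with 6.53% higher and 6.17% lower. By the brightest tested probe of each gene, 3 of 4 nucleases, 1 of 2 modifying enzymes and 3 of 4 sensors passed, Dnase1 as lower and the others as higher. With 1 probe per gene the median log2 changes were 0.45 for nucleases, 0.83 for modifying enzymes and 1.12 for sensors. The medians over probes weight genes by their number of probes, as 4 of the 6 tested probes of modifying enzymes are of Samhd1. The order of modifying enzymes and sensors thus depended on this weight. With the slide column as a block the higher probes were 1 for nucleases and 2 for sensors. Probes of 1 gene share its transcript and are not independent, and the difference between the classes was not tested.

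The probes of 1 gene were compared with each other within each array. Over all genes with at least 2 tested probes, 305 of 14119 pairs of a dimmer probe with the brightest one changed differently in limma at an adjusted p under 0.05, which is 2.16%. At an unadjusted p under 0.05 there were 2374, or 16.8%. Of the 12 pairs within the genes examined here, 0 passed, and 1 had an unadjusted p under 0.05, the Dnase2a pair given above. The largest distances from the most 3′ probe were in Ddx58 and Samhd1. The differences of Samhd1 probes from their brightest probe were 0.14 to 0.22, and those of Ddx58 probes were -0.12 to -0.16. With normexp, 2 of the 12 pairs passed, those of Ifih1 with a difference of -0.73 (limma adjusted p = 0.0432) and of Zbp1 with -0.81 (limma adjusted p = 0.0171), with the dimmer probe showing the smaller change in both. The offset of normexp shrinks the dimmer probe more, so these pairs do not show that the probes differ.

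**Figure D3:**
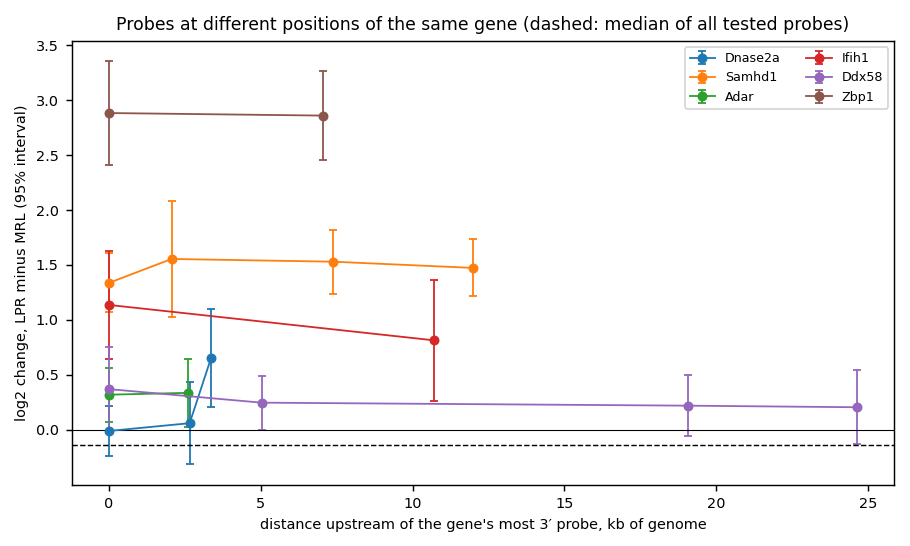
Log2 change, LPR minus MRL, with its 95% interval for the tested probes of 6 genes, against the distance in kb of genome upstream of the most 3′ probe of the gene. Lines join probes of 1 gene, and the dashed line is the median of all tested probes at -0.14. Samhd1 probes stay between 1.34 and 1.55 and Ddx58 probes between 0.21 and 0.37 over the whole distance.

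The 3 LPR mice did not differ from the MRL mice to the same extent. In the plot of each LPR mouse against the MRL mean, LPR 2 was the lowest of the LPR mice in 6 of 7 tested probes of Ifih1, Ddx58 and Dhx58, against 34% of all tested probes, and LPR 1 was the highest in 6 of 7, against 30.7%. For the brighter Ifih1 probe the LPR mice lay 1.38, 0.75 and 1.28 above the MRL mean. For the brightest Ddx58 probe they lay 0.62, 0.04 and 0.46 above it. The 4 tested Samhd1 probes and the Dnase1l3 probe also had LPR 1 highest and LPR 2 lowest. For Dnase1l3 the LPR mice lay 2.86, 2.20 and 2.64 above the MRL mean. The order differed in Trex1, Zbp1 and Dnase1. Trex1 was highest in LPR 2, at 1.00 above the MRL mean, and lowest in LPR 1, at 0.70. The brighter Zbp1 probe was lowest in LPR 1, at 2.56, and highest in LPR 3, at 3.02. Dnase1 was lowest in LPR 1, which lay at -2.00 relative to the MRL mean in the brighter probe, against -1.47 and -1.28 in LPR 2 and LPR 3. The array of LPR 1 had a 75th percentile of 942, against 706 to 759 on the other arrays. On it 73.5% of spots were well above background, against 69.6% to 70.9%. With 1 array per mouse, differences between mice and between arrays cannot be told apart. Probes of 1 gene share their samples, so the counts of probes describe the 3 mice and are no test.

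**Figure D4:**
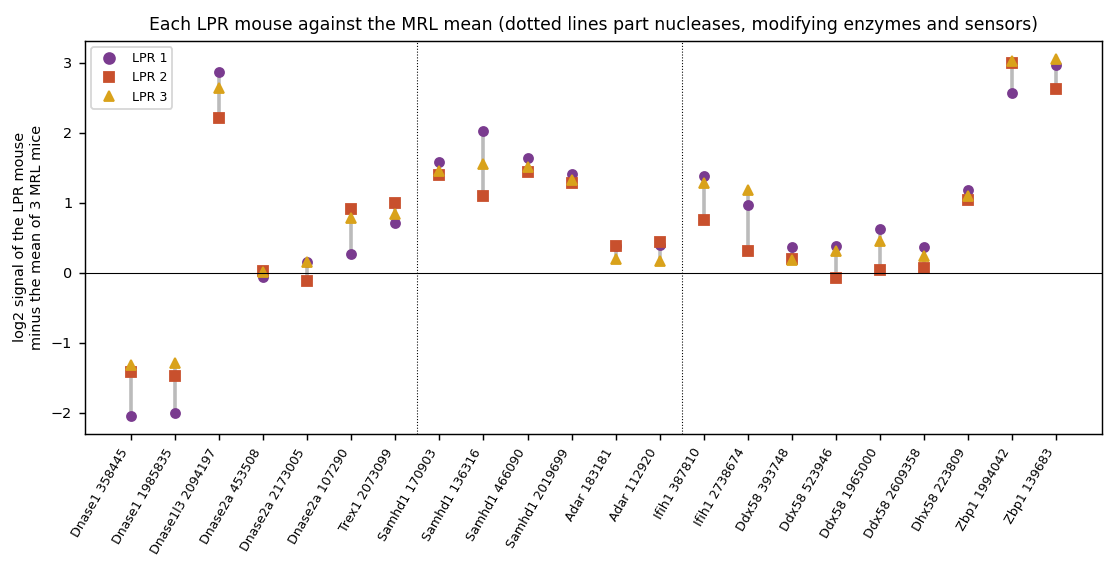
Log2 signal of each LPR mouse minus the mean of the 3 MRL mice for the 22 tested probes, with 1 symbol per mouse and a grey bar over the range of the 3 mice. LPR 2, the square, lies lowest in most probes of Ifih1, Ddx58 and Dhx58, with 0.75 against 1.28 and 1.38 in the brighter Ifih1 probe. It also lies lowest in the tested probes of Samhd1 and in that of Dnase1l3.

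RefSeq windows around the transcript start, with 250 bases before and 50 bases after it, were read for 7 of the 10 genes in build GRCm38.p6. No window was given for Dnase1l3, Dhx58 and Zbp1. The windows were searched on both strands for the core of the interferon-stimulated response element (ISRE), which is GAAA, any 2 bases and GAAA again, and for the gamma-activated site (GAS), TTCNNNGAA. The ISRE core was found in 3.44% of all 32851 windows and in those of Ifih1 and Ddx58. The GAS letters were found in 8.30% of all windows, in that of Samhd1 and in 1 of 3 windows of Adar. The GAS letters read the same on both strands, and no window of these genes held both motifs. The matches are shown because these 4 genes differ in their change, with the motif in capitals on the strand of the gene, in 30 bases at chr2:62646206-62646235 for Ifih1, chr4:40239804-40239833 for Ddx58, chr2:157135312-157135341 for Samhd1 and chr3:89730730-89730759 for Adar:
Ifih1, ISRE core: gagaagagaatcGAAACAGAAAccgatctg
Ddx58, ISRE core on the other strand: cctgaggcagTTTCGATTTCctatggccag
Samhd1, GAS: acaccaccctTTCGGAGAAacacaagggcg
Adar, GAS: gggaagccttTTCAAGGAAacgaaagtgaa

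The matches of Ifih1, Ddx58 and Adar begin 33, 3 and 23 bases after the start, and that of Samhd1 begins 235 bases before it. Ifih1 and Ddx58 both hold a match to the ISRE core, on different strands. Ifih1 was called by 1 of its 2 probes and Ddx58 by none. The relation of the motifs to the changes was not tested. The matches are letters in the genome and do not show binding.

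Other genes that act on the same nucleic acids were read from lists, by the brightest tested probe of each gene. Of 68 listed genes, 61 were tested on 6 lists. In limma 22 of these were higher, 0 were lower and 39 did not pass, against 7.12% of all genes higher and 5.47% lower. At an unadjusted p under 0.05 limma counted 26 and 3, and the methods' t-test after adjustment also gave 0 lower.

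Other DNases and RNases mostly did not pass. Of 8 tested DNases, Pld4 was higher and 7 did not pass, with a median log2 change of 0.06. Pld4, an exonuclease of endolysosomes in immune cells, gave -3.19, -3.15 and -2.51 in MRL mice and 0.37, 0.47 and 0.15 in LPR mice, a log2 change of 3.28. The groups lay far apart. Of 11 RNases, Rnase6, a secreted antimicrobial ribonuclease of myeloid cells, was higher with a log2 change of 2.19, and 10 did not pass. The 3 subunits of RNase H2, which removes ribonucleotides from DNA, had log2 changes of -0.07, -0.07 and -0.02 that did not pass.

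Genes for sensing DNA in the cytosol were higher for 5 of 10 tested, with a median log2 change of 0.76. They were Mb21d1, which encodes cGAS, with 0.87, its adaptor Tmem173, which encodes STING, with 1.80, the inflammasome sensor Aim2 with 2.27, and the related Ifi204 with 1.51 and Ifi205 with 2.13. Tmem173 gave -0.33, -0.22 and 0.02 in MRL mice and 1.64, 1.60 and 1.64 in LPR mice, which were nearly equal among themselves. Ifi205 was well above background on 2 of the 3 MRL arrays. The helicases Dhx9 and Dhx36 had log2 changes of -0.43 and -0.40 that did not pass.

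Adaptors and partners of the sensors were higher for 5 of 16 genes, with a median log2 change of 0.21. Ripk3 and Mlkl, which carry out necroptosis downstream of ZBP1, had log2 changes of 1.42 and 1.31. Irf7, a transcription factor of interferon genes, had 1.40, the kinase Ikbke had 1.30 and the ubiquitin ligase Rnf125, which marks RIG-I for degradation, had 0.81. Mavs, the adaptor of RIG-I and MDA5, had a log2 change of -0.18 and the kinase Tbk1 one of 0.06, and neither passed. Ripk1 and Casp8, which act with ZBP1 and RIPK3, had 0.21 and -0.24 and did not pass.

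Interferon-stimulated genes were higher for 8 of 11, with a median log2 change of 0.59. The largest changes among the 11 were 3.21 for the antiviral GTPase Mx1, which was well above background on 1 of the 3 MRL arrays, 1.45 for the ubiquitin-like Isg15, 1.17 for the RNA-binding Ifit1 and 0.97 for Usp18, which removes Isg15 from proteins. Ifi44, Ifi27l2a and Rsad2 had log2 changes of 0.32, 0.29 and -0.02 and did not pass. Of 5 tested genes for interferons and their receptors, 2 were higher. Ifng, which encodes the gamma interferon of T and NK cells, was well above background on no MRL array and LPR mice exceeded MRL mice at least 16.4-fold (limma adjusted p = 0.000277). Ifngr2, a chain of its receptor, had a log2 change of 0.62. The type I interferon genes Ifnb1 and Ifna4 did not pass the filter on dim signals and were not tested.

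**Figure D5:**
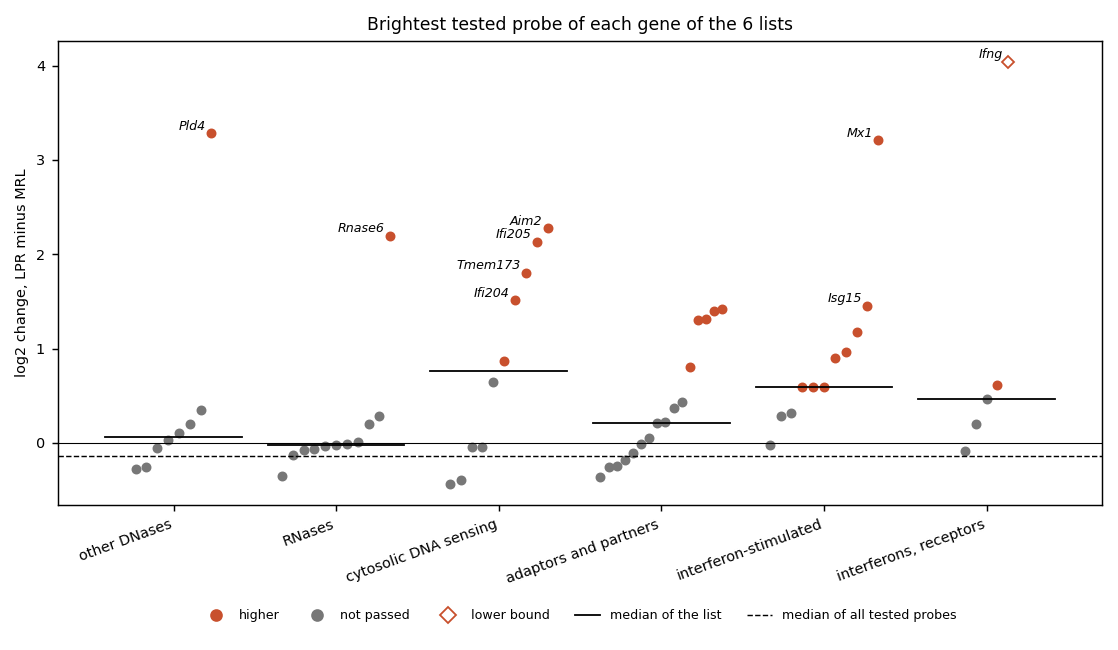
Log2 change, LPR minus MRL, of the brightest tested probe of each gene on 6 lists of nucleic acid metabolism, sensing and interferon response, with red points past the threshold in limma and grey points not. Black lines are list medians, the open diamond is the lower bound of Ifng, and the dashed line is the median of all tested probes at -0.14. All 22 points that passed lie above 0, with 8 of 11 among interferon-stimulated genes and 1 of 11 among RNases.

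Markers of leukocytes were mostly higher in LPR mice. Of 30 tested markers on 7 lists, 23 were higher, 1 was lower and 6 did not pass, with a median log2 change of 2.59. The summed linear signal of 5 T cell markers was 1.32 to 1.59 times the 75th percentile in MRL mice and 11.5 to 13.7 times in LPR mice, and that of 6 macrophage markers 26.5 to 34.1 times and 48.9 to 51.7 times. The brightest macrophage markers, Csf1r and Itgam, weigh most in this sum. Their log2 changes were 0.55 and -0.09, of which only that of Csf1r passed. For 4 plasma cell markers the sums were 2.34 to 4.34 times and 46.1 to 92.7 times, for 5 B cell markers 0.66 to 0.87 times and 3.50 to 4.71 times, and for 3 general leukocyte markers 3.49 to 4.32 times and 12.6 to 13.9 times. For 5 dendritic cell markers the sums overlapped, at 92.8 to 112 times and 91.7 to 100.6 times, while Itgax, Flt3 and Xcr1 were higher. Siglech made up nearly all of these sums, with mean log2 signals of 6.64 in MRL mice and 6.53 in LPR mice. Siglech and Zbtb46 had log2 changes of -0.10 and 0.02 and did not pass. Of 3 NK cell markers 2 were tested, and their sums were 0.20 to 0.41 times and 1.32 to 1.86 times. Of these, Gzma was higher and Ncr1 did not pass (limma adjusted p = 0.100). Tnfrsf17 and Xcr1 were the markers well above background on no MRL array. DNASE1L3, SAMHD1, ZBP1, PLD4 and AIM2 are known to be abundant in leukocytes. The part of the leukocyte markers in the rises of these genes was not tested.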

How the data were processed

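TA was performed with 6 one-colour Agilent SurePrint G3 mouse arrays on 1 slide, 1 array per mouse. The authors deposited intensities from Feature Extraction 12.0.3.1, with background subtracted and signals detrended within the array, and also a ratio of each intensity to the 75th percentile of its array. Outlier spots (73 to 90 per array) and controls were left out, 69.6% to 73.5% of spots were well above background, and none was saturated. Intensities were taken to log2, the 75th percentile (706 to 942) was subtracted, and spots of a probe were averaged. The LPR arrays were set against the MRL arrays in limma 3.58.1 (R 4.3.3). A design of 3 mice against 3 cannot give an exact permutation p below 0.10, so none is given. The number of arrays limits the precision. Brightness of different probes was compared only to choose the brightest probe.

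All probes of the genes were kept, Fas was added, and from each list the up to 4 genes with the largest changes past the threshold were named; other list genes named were chosen after their values were seen. One gene of the interferon-stimulated list is not reported here and was left out of its counts. The genes and lists were chosen with earlier results of these data known. Of the 24 probes, 19 had an accession in the RefSeq list and 0 of these has another symbol there. Probe coordinates are those of the array design on mm9, whose exon annotation was not used here. Alternatives were the background correction, the scaling, the filter and floor for dim signals, outlier spots, an intensity trend, the slide column and replicate number as blocks, the methods' t-test on log2 or linear values, and leaving out each mouse. Steps were tested on simulated data. Python 3.11.15 and matplotlib 3.10.9 made the plots.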

Additional observations from a re-analysis of the deposited data

How the results depend on the processing

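Of 439 values of member probes over up to 20 alternatives each, 410 kept their direction and their side of the threshold, 16 kept the direction but no longer passed, 8 newly passed and 5 changed sign. The 5 were all of Dnase2a probes that had not passed: A_52_P453508 moved from -0.01 to 0.0028 with a median shift, to 0.026 with the percentile over detected probes, and to 0.012 without MRL 3 and 0.019 without LPR 1, within a range of -0.039 to 0.019 without 1 mouse. A_55_P2173005 moved from 0.06 to -0.024 without MRL 2, within a range of -0.024 to 0.20 without 1 mouse. Both Dnase1 probes, both Zbp1 probes, the Dnase1l3 probe and the 4 tested Samhd1 probes passed in every limma alternative in which they were tested. Over all alternatives, limma called 7 to 12 member probes higher, against 10 in the values reported, and 2 lower in each of them.

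The counts over all probes moved more. Normexp gave 4448 lower probes, 2 lower genes on the lists, 754 probe pairs and 2 member pairs that differed. Quantile normalization gave 1 lower list gene and the intensity trend 2. Without the filter on dim signals 1092 probes were lower. The slide column as a block gave 1458 higher and 463 lower probes, 1 higher nuclease probe, 2 higher sensor probes and 46 probe pairs, and since LPR 2 and LPR 3 lay in a column with no MRL array, it rests on LPR 1. The methods' t-test on log2 values had 14 member probes higher and 2 lower at the methods' own threshold without adjustment. The paper ran its test only on genes past a minimum fold over the control, and that rule was not applied here. After Benjamini-Hochberg adjustment the t-test on log2 values gave 6 higher and 0 lower member probes, with 1 for nucleases and 2 for sensors. It gave 1736 higher and 1385 lower probes in all, and 14 higher list genes. On linear values it gave 13 and 2 member probes without adjustment, and with it 7 and 0, with 1 for nucleases, 1444 higher and 1353 lower probes in all, and 13 higher list genes.

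Leaving out 1 mouse gave 9 to 12 higher and 2 lower member probes, 760 to 2269 lower probes in all (839, 760 and 827 without MRL 1, 2 and 3, and 1503, 2269 and 900 without LPR 1, 2 and 3), 0 to 1 lower list genes and 101 to 179 probe pairs that differed. The median change of all tested probes moved by at most 0.04 under any alternative. The share of higher among all calls, 51.4% in the values reported, was 36.3% with normexp, 66.3% without the filter, 75.9% with the slide column and 51.1% to 72.8% without 1 mouse.

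The labels number the mice of each group. The correlation of deviations from the group means, over probes, was 0.12, 0.02 and 0.01 for mice of the same number. It was -0.07 to 0.05 for mice of different numbers, and not every mouse correlated best with its own number. With 3 mice per group these values cannot decide whether the numbers pair the mice, which were treated as unpaired. With a replicate block 1117 probes were lower and 89 probe pairs differed, 2199 probes were higher, and 10 member probes were higher and 2 lower. The block changed no call of a member probe.

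Signals near background limit Dnase1l3, Dhx58 and the second Zbp1 probe, whose changes shrank with normexp, and 2 of the 24 probes could not be tested. Other dim probes also shrank with normexp, A_66_P107290 of Dnase2a to 0.06 and A_52_P136316 of Samhd1 to 0.80. The lowest change of the second Ifih1 probe over the alternatives was 0.28.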
